A study of Mus musculus with 7 samples.

Results

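The genes examined here are 32 mouse genes of the endoplasmic reticulum (ER) that fold secreted proteins, form their disulphide bonds, remove misfolded chains and signal when folding fails. They are a list of named genes, and all 32 were found among the 55414 gene identifiers of the count table. All 32 also passed the filter on low counts, which left 14329 genes for testing. RNA came from Paneth cells (PCs), secretory cells that sit at the bottom of intestinal crypts and store granules, which were purified with a cell sorter from C57BL/6J mice. The mice had been injected with tumor necrosis factor (TNF, 4 libraries) or with phosphate-buffered saline (PBS, 3 libraries), and the intestine was taken 15 h later in both groups. Every library came from a separate mouse per the series description, and total counts per library ran from 15511455 to 19193721. The TNF dose, the antibodies of the sort, the age and sex of the animals, the sampled part of the intestine and the days of work were not given in the labels or the series description, and no batch could therefore be compared.

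PCs release large amounts of antimicrobial peptides (AMPs) and lysozyme, all of which are folded in the ER. Unfolded proteins in the ER are sensed by IRE1, PERK and ATF6. IRE1 splices the Xbp1 mRNA, PERK slows translation and favours the translation of ATF4, and ATF6 is cut in the Golgi to free a transcription factor. XBP1 and ATF6 then switch on chaperones, oxidoreductases and the genes of ER-associated degradation, which returns misfolded proteins to the cytosol for the proteasome. Mice without Xbp1 in the intestinal epithelium are known to lose their PCs.

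Some promoters of these genes carry the DNA letters through which ATF6 and XBP1 are known to act, and they are shown first so that each gene's change can be read beside them. The ER stress response element (ERSE) is CCAAT, 9 further bases and CCACG, ERSE-II is ATTGG, 1 further base and CCACG, and TGACGTG is the core of the unfolded protein response element. Both strands were searched in RefSeq promoter windows of GRCm38.p6, which run from 250 bases before to 50 bases after a start site. A window was found for 28 of the 32 genes (29 windows, since Derl2 has several), while Atf6, Derl1, Hyou1 and Manf had none. ERSE was found for 10 of these 28 genes (35.7%), against 37 of all 27025 genes with a window (0.137%). ERSE-II was found for 2 of 28 (7.14%), against 0.0444% of all genes, and the core TGACGTG for 1 of 28 (3.57%), against 2.22%. Genes and motifs were both chosen as known parts of this response, so these shares are a description and no enrichment was tested. A match describes letters only and does not show that a factor was bound.

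3 of the 12 genes with ERSE or ERSE-II were higher after TNF, where 29.5% of all genes tested were higher, and their matches were as follows, with the fixed letters in capitals and each site given 5′ to 3′ on the strand named.
Hspa5, chr2:34772025-34772043, plus strand: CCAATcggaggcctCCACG
Calr, chr8:84847075-84847093, plus strand: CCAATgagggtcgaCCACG
Herpud1, chr8:94386377-94386387, plus strand: ATTGGgCCACG

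5 of the 12 were lower after TNF, where 30.1% of all genes tested were lower, and Hsp90b1 held 2 matches.
Hsp90b1, chr10:86705533-86705551, plus strand: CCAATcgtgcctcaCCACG
Hsp90b1, chr10:86705638-86705656, minus strand: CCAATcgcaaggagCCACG
Dnajc3, chr14:118937827-118937845, plus strand: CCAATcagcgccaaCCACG
Pdia6, chr12:17266491-17266509, plus strand: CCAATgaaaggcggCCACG
Ero1b, chr13:12565682-12565700, minus strand: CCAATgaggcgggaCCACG
Derl3, chr10:75893242-75893260, minus strand: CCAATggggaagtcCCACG

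The last 4 were not called in either direction.
Canx, chr11:50325800-50325818, minus strand: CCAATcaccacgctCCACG
Creld2, chr15:88819520-88819538, minus strand: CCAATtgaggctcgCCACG
Syvn1, chr19:6046532-6046550, plus strand: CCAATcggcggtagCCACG
Dnajb11, chr16:22857852-22857862, plus strand: ATTGGcCCACG

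The ERSE of Hspa5 lay 65 to 47 bases before the start and that of Ero1b 201 to 183 bases before it, the latter on the strand opposite to the gene.

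**Figure D1:**
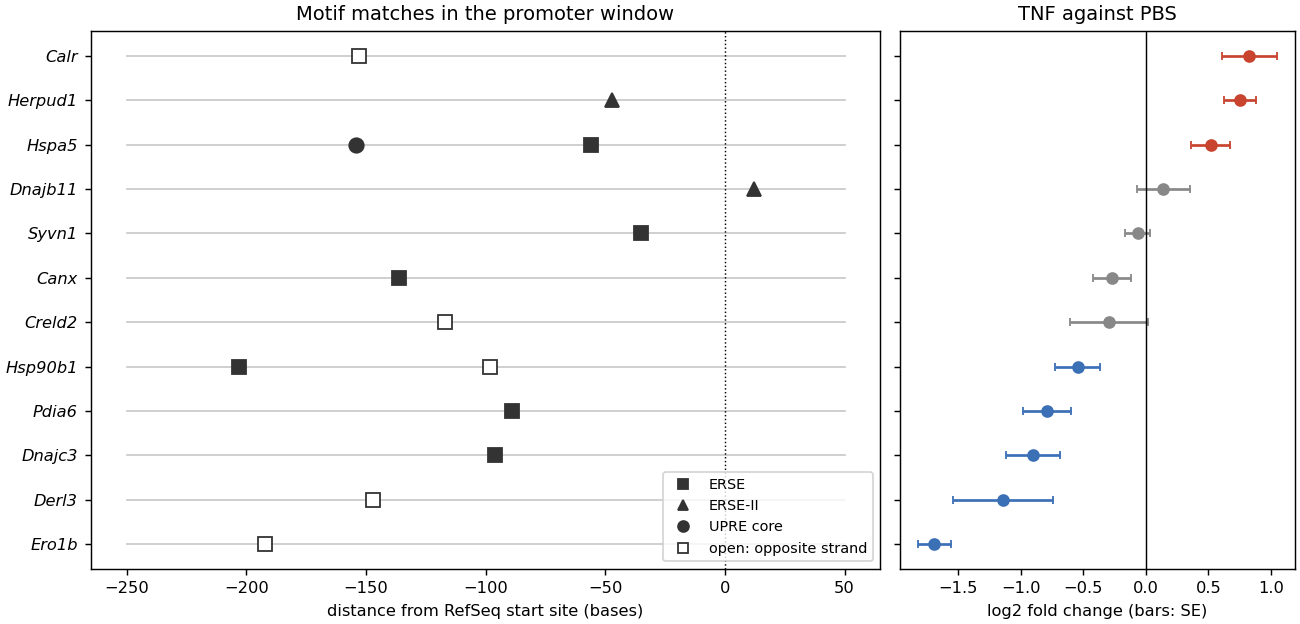
Left, position of each motif match in the promoter windows of the 12 genes with ERSE or ERSE-II, as distance in bases from the RefSeq start site (filled, strand of the gene; open, opposite strand). Right, log2 fold change of the same gene, TNF against PBS, with its SE (red, called higher; blue, called lower; grey, not called). The genes are in order of their change, from Calr (0.83) to Ero1b (-1.69), and ERSE stands at both ends.

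Whole stretches of 250 bases before the start are given for the pairs Hspa5 and Hsp90b1 and Ero1a and Ero1b, because the members of each pair do related work and moved in opposite directions. Capitals mark the matched letters (on the opposite strand, CGTGG and ATTGG), and each stretch reads 5′ to 3′ on the strand of its gene.
Hspa5, chr2:34771840-34772089, plus strand: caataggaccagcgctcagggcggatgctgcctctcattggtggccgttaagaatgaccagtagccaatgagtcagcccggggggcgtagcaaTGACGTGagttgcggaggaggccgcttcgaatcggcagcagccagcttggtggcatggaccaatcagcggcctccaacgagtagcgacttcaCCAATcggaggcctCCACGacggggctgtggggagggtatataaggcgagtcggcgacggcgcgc
Hsp90b1, chr10:86705445-86705694, minus strand: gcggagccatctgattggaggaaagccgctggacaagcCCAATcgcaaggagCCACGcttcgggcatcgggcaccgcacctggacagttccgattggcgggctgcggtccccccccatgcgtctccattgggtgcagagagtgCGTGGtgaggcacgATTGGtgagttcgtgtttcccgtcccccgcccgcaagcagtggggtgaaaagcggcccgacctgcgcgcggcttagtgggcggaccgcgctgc
Ero1a, chr14:45318573-45318822, minus strand: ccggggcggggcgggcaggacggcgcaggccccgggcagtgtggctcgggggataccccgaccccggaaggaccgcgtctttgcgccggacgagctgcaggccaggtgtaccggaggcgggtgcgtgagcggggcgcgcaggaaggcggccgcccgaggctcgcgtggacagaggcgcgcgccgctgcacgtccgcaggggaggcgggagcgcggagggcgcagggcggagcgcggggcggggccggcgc
Ero1b, chr13:12565633-12565882, plus strand: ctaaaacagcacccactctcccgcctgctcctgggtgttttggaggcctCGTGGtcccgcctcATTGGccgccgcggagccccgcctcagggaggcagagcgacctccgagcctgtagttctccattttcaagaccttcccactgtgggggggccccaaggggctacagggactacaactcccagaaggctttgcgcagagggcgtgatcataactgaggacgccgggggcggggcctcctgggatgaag
The Ero1a stretch held none of the letters searched for, and the gene rose. The Ero1b stretch held 1 ERSE, and the gene fell.

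Of the 32 genes, 11 were higher and 13 lower after TNF at an adjusted p under 0.05 (edgeR), and 8 were not called. That is 75.0% called, in a data set in which 59.6% of all genes tested were called, 29.5% higher and 30.1% lower. TNF libraries and PBS libraries did not overlap for 19 of the 32 genes (59.4%), against 60.7% of all genes tested, a share close to the background. Called changes of at least 2-fold were found for 8 of the 32 genes, 1 higher (Ero1a) and 7 lower, against 31.6% of all genes. The median log2 fold change of the 32 genes was -0.28 (range -1.69 to 1.37), against a median of 0.00 over all genes tested (0.00168). Scaling by total counts alone moved that median of all genes to -0.16 and gave 9 higher and 16 lower among the 32 genes. In bulk RNA of sorted cells, fewer cells of a type and less RNA per cell cannot be told apart.

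**Figure D2:**
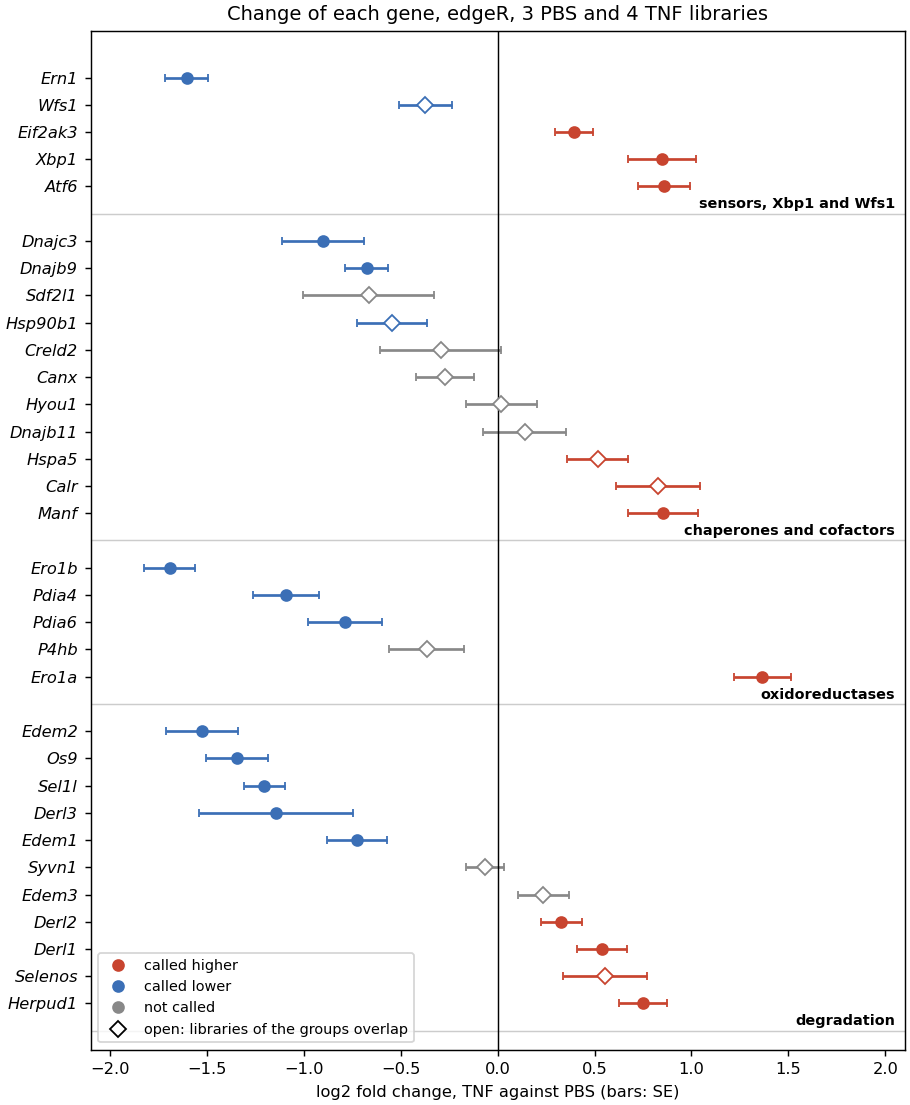
Log2 fold change of each of the 32 genes, TNF against PBS, with its SE (edgeR, 3 PBS and 4 TNF libraries), grouped by role. Every role holds genes on both sides of 0, from Ero1b (-1.69) to Ero1a (1.37), and open symbols mark genes whose libraries overlap between the groups.

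As a share of all counts, the 32 genes made up 1.22, 1.07 and 1.09% of the PBS libraries and 0.861, 1.04, 0.979 and 0.972% of the TNF libraries. Levels are given as CPM (counts per 1000000 counts of the TMM-scaled library), and levels of different genes are compared only per kb of summed exon length. After PBS, P4hb, which encodes the main protein disulphide isomerase, had the highest level per kb with 704 ± 155 CPM per kb (SD, n = 3). Calr followed with 199.9 ± 67.3 CPM per kb, a level within its spread of that of Hspa5 (165 ± 21.9 CPM per kb). Derl3 was lowest with 1.84 ± 0.358 CPM per kb. The order P4hb, Calr, Hspa5 was the same after TNF, with 546 ± 113, 355 ± 64.4 and 236 ± 38.96 CPM per kb (SD, n = 4). The level per kb depends on the annotated length. Per kb of the canonical transcript, a choice made after the data were seen, Hsp90b1 stood at 201 ± 51.8 CPM per kb and Hspa5 at 185 ± 24.6 after PBS, and Manf at 65.4 ± 14.3 in place of 12.1 ± 2.63 CPM per kb. Of the annotated Manf exon bases, 32.6% are shared with Rbm15b on the same strand.

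**Figure D3:**
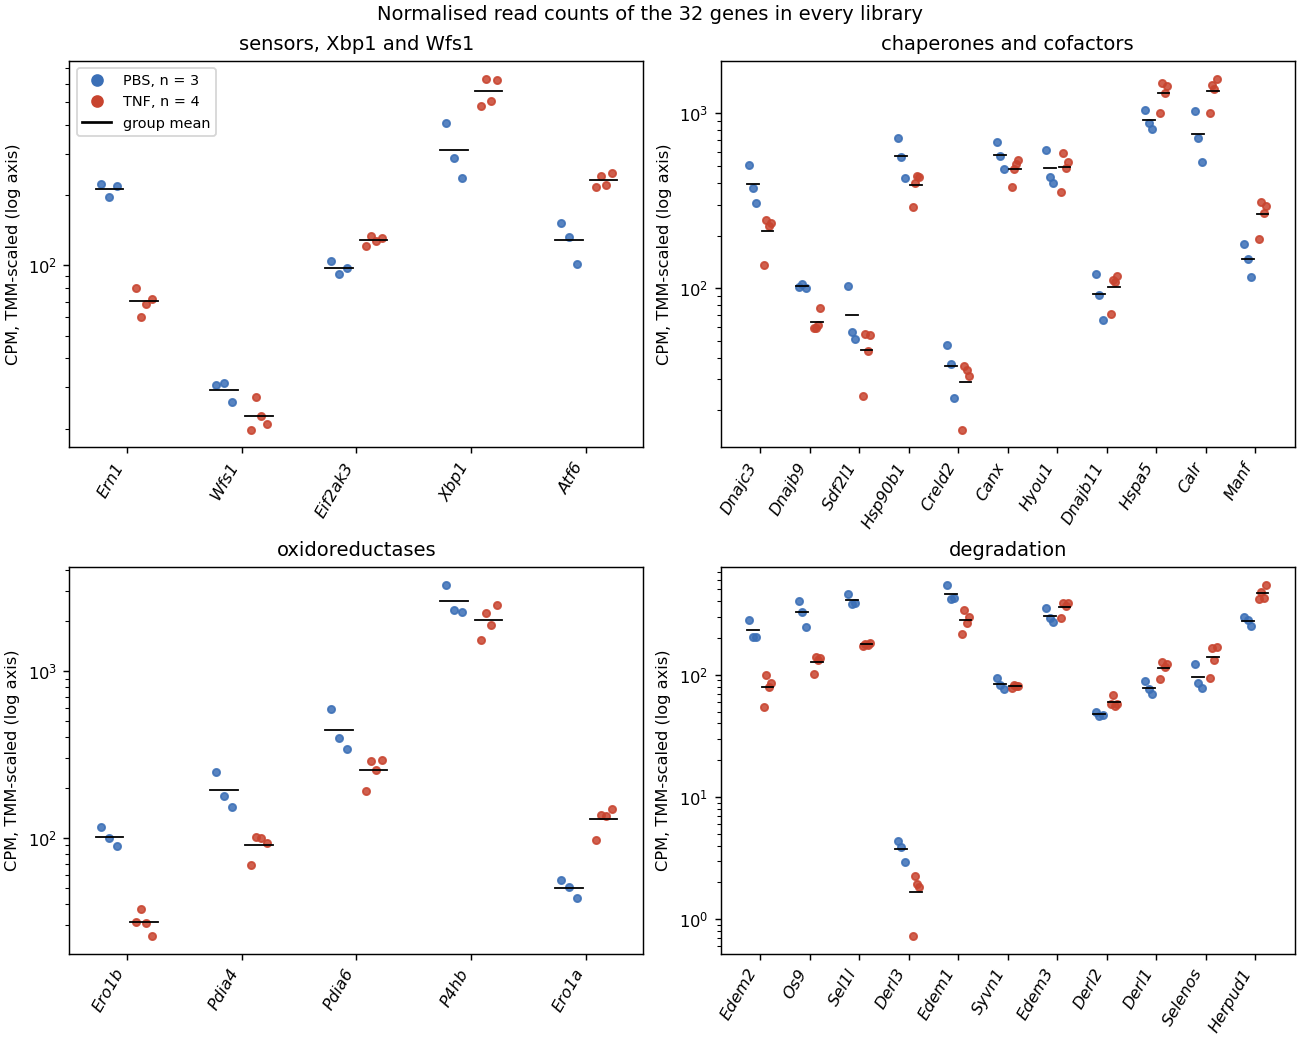
TMM-scaled CPM (log axis) of each gene in every library, one panel per role, with PBS in blue (n = 3), TNF in red (n = 4) and a bar at each group mean. Ern1, Ero1b, Sel1l, Edem2 and Os9 are lower in all TNF libraries than in any PBS library, while for Hyou1, Canx, Dnajb11 and Syvn1 the points of both groups lie among each other.

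The first role was that of the sensors, with Xbp1 and Wfs1. All 5 genes passed the test, 3 higher and 2 lower, and the libraries of 4 (80.0%) did not overlap between the groups, against 59.6% called and 60.7% without overlap over all genes tested. The 3 sensors did not move together: Ern1 fell, while Atf6 and Eif2ak3 rose.

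Ern1 (ENSMUSG00000020715, chr11:106283818-106378686 in GRCm39, minus strand) encodes IRE1-alpha, the kinase and endoribonuclease that splices Xbp1. Its levels were 224, 197 and 219 CPM in the PBS libraries and 80.2, 60.1, 68.5 and 71.6 CPM in the TNF libraries. The highest TNF library was thus far below the lowest PBS library. The mean of Ern1 was 213 ± 14.2 CPM after PBS (SD, n = 3) and 70.1 ± 8.31 CPM after TNF (SD, n = 4), and the gene fell by 1.60 ± 0.11 on the log2 scale (SE, edgeR adjusted p = 4.40e-08).

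Atf6 (ENSMUSG00000026663, chr1:170532026-170696208, minus strand) encodes the membrane-bound transcription factor. It had 152, 132 and 101 CPM after PBS and 217, 243, 221 and 249.9 CPM after TNF. All TNF libraries were above all PBS libraries, and the log2 fold change was 0.86 ± 0.13 (SE, adjusted p = 7.58e-05). Eif2ak3 (ENSMUSG00000031668, chr6:70821461-70882235, plus strand) encodes PERK, which phosphorylates eIF2-alpha. With 104, 91.9 and 97.5 CPM after PBS and 122, 134, 127 and 132 CPM after TNF, its groups did not overlap either, but the change was small (log2 fold change 0.39 ± 0.10, SE, adjusted p = 0.00283). This call was lost when libraries were scaled by total counts alone (0.23, adjusted p = 0.123, the highest of 15 alternatives, the lowest being 0.0004505).

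Xbp1 (ENSMUSG00000020484, chr11:5470606-5483027, plus strand) rose in total mRNA while Ern1 fell. Its levels were 409, 288 and 238 CPM after PBS and 484, 631, 506 and 622 CPM after TNF. The spread was wide in both groups, but the lowest TNF library was above the highest PBS library (311 ± 88.0 against 561 ± 76.7 CPM, log2 fold change 0.85 ± 0.18, SE, adjusted p = 0.000979). Counts per gene do not separate the spliced from the unspliced mRNA, so the activity of IRE1 cannot be read from them. Of the annotated Xbp1 exon bases, 22.0% are shared with Ccdc117 on the other strand, which had 2992 counts in all libraries against 55132 for Xbp1, and whether counting used strand is not stated in the labels.

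Wfs1 encodes wolframin, an ER membrane protein that is known to restrain ATF6. It had 30.7, 31.3 and 25.9 CPM after PBS and 19.7, 27.2, 22.6 and 21.0 CPM after TNF, and PBS 3 lay below TNF 2. The call was weak (log2 fold change -0.37 ± 0.14, SE, adjusted p = 0.0314) and was kept in 9 of 15 alternatives (adjusted p 0.0113 to 0.121). Without PBS 1, PBS 2, TNF 1, TNF 3 or TNF 4, the log2 fold change was -0.38 to -0.31 and the adjusted p 0.0521 to 0.121.

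The second role held 11 chaperones and cofactors. Of these, 3 were higher (Hspa5, Calr and Manf), 3 lower (Hsp90b1, Dnajb9 and Dnajc3) and 5 not called. None changed 2-fold, the median log2 fold change was -0.27, and the libraries of only Manf, Dnajb9 and Dnajc3 did not overlap between the groups. The called share of 54.5% and the share without overlap of 27.3% compare with 59.6% and 60.7% over all genes tested.

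Hspa5 (ENSMUSG00000026864, chr2:34661982-34668880 in GRCm39, plus strand) encodes BiP, the Hsp70 of the ER lumen that also holds the sensors inactive. It had 1052, 876 and 819 CPM after PBS and 1008, 1499, 1306 and 1425 CPM after TNF. TNF 1 lay below PBS 1, and the other TNF libraries lay above all PBS libraries. The mean rose from 916 ± 122 to 1309.6 ± 216 CPM, which is 0.52 ± 0.16 on the log2 scale (SE, edgeR adjusted p = 0.0121). Without PBS 2 it was 0.49 with an adjusted p of 0.0507 (range over 15 alternatives 0.000359 to 0.123). Rabepk, on the other strand, shares 44.2% of the Hspa5 exon bases but had 1196 counts in all libraries against 139438 for Hspa5.

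Hsp90b1, which encodes the Hsp90 of the ER, went the other way. Its levels were 721, 560.2 and 428 CPM after PBS and 290.3, 399, 439 and 433 CPM after TNF, so that TNF 3 and TNF 4 lay just above PBS 3. The log2 fold change was -0.55 ± 0.18 (SE, adjusted p = 0.0189). PBS 1 carried much of the difference, since without it the value was -0.34 with an adjusted p of 0.113 (range over 15 alternatives 5.21e-05 to 0.113).

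The lectin chaperones calreticulin and calnexin bind the same glycan on folding proteins, the first in the lumen and the second in the membrane. Calr (ENSMUSG00000003814, chr8:85567946-85573667, minus strand) had 1036, 721 and 528 CPM after PBS and 1007, 1447, 1373 and 1581 CPM after TNF. PBS 1 lay just above TNF 1, and the other TNF libraries were above all PBS libraries (log2 fold change 0.83 ± 0.22, SE, adjusted p = 0.0054). Canx had 688, 569 and 478 CPM after PBS and 378, 478, 516 and 543 CPM after TNF and was not called (-0.27 ± 0.15, SE, adjusted p = 0.134). Without PBS 3 it was called lower (-0.40, adjusted p = 0.0348), as it was when scaled by total counts alone (-0.43, adjusted p = 0.00167, the lowest of 15 alternatives, the highest being 0.507). These 2 of the 15 alternatives were the only ones that called Canx.

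J-domain proteins stimulate BiP and hand it its clients. Dnajc3 (ENSMUSG00000022136, chr14:119175317-119219115, plus strand) had 503, 375 and 306 CPM after PBS and 136, 246, 225 and 237 CPM after TNF. The groups did not overlap, and it fell by 0.90 ± 0.21 on the log2 scale (SE, adjusted p = 0.00354). Dnajb9 had 102, 105 and 99.6 CPM after PBS and 59.4, 59.3, 61.1 and 76.6 CPM after TNF. Its groups did not overlap, and it fell by 0.68 ± 0.11 on the log2 scale (SE, adjusted p = 0.000121). Dnajb11 went from 92.6 ± 27.3 to 102 ± 21.0 CPM and was not called (0.14 ± 0.21, SE, adjusted p = 0.602).

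Manf encodes a small protein that binds BiP and is partly secreted. Its levels were 179, 146 and 115 CPM after PBS and 190.2, 310.3, 268 and 294 CPM after TNF. TNF 1 was only slightly above PBS 1 and the others far above it, and the log2 fold change was 0.85 ± 0.18 (SE, adjusted p = 0.00122). Reads of Rbm15b, which shares exon bases with Manf on the same strand and had 9776 counts against 26129, make the level of Manf uncertain.

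The last 3 of this role were not called. Hyou1, which helps BiP to exchange its nucleotide, was at 484 ± 117 CPM after PBS and 491 ± 101 CPM after TNF (log2 fold change 0.02 ± 0.18, SE, adjusted p = 0.936). Sdf2l1, a partner of Dnajb11, was at 69.9 ± 28.3 and 44.0 ± 14.2 CPM (-0.67 ± 0.34, SE, adjusted p = 0.129), and with scaling by total counts alone it was called lower (-0.82, adjusted p = 0.00687, the lowest of 15 alternatives). Without PBS 1 the log2 fold change of Sdf2l1 was -0.28 (adjusted p = 0.431, the highest). Creld2, an ER protein known as a marker of ER stress, was at 35.7 ± 11.9 and 29.1 ± 9.31 CPM (-0.29 ± 0.31, SE, adjusted p = 0.446), with -0.04 without PBS 1, -0.08 without TNF 1 and -0.53 without PBS 3.

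The third role was disulphide bond formation, with 5 genes, of which 1 was higher, 3 were lower and 1 was not called (80.0% called, against 59.6% over all genes tested). The median log2 fold change was -0.79. The largest rise and the largest fall of all 32 genes were those of the paralogs Ero1a and Ero1b, which encode the oxidases that pass electrons from protein disulphide isomerases to oxygen.

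Ero1a (ENSMUSG00000021831, chr14:45520541-45556228 in GRCm39, minus strand) is the more widely expressed of both. It had 55.9, 50.7 and 43.6 CPM after PBS and 96.5, 136, 134 and 149 CPM after TNF. Every TNF library was well above the highest PBS library, and the gene rose from 50.1 ± 6.17 to 129 ± 22.6 CPM (log2 fold change 1.37 ± 0.15, SE, adjusted p = 3.30e-06).

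Ero1b (ENSMUSG00000057069, chr13:12580716-12626285, plus strand) is known from secretory tissues such as the pancreas. Its levels were 115, 99.5 and 88.8 CPM after PBS and 31.4, 37.3, 30.7 and 25.8 CPM after TNF. No library came near those of the other group, and Ero1b fell from 101 ± 13.4 to 31.3 ± 4.72 CPM (log2 fold change -1.69 ± 0.13, SE, adjusted p = 1.25e-07).

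The isomerases were lower or not called. Pdia4 had 249, 178 and 152 CPM after PBS and 68.3, 101, 99.8 and 92.7 CPM after TNF, and it fell by 1.09 ± 0.17 on the log2 scale (SE, adjusted p = 0.000133). Pdia6 had 590.3, 397 and 339 CPM after PBS and 190.3, 288, 256 and 290.4 CPM after TNF, and it fell by 0.79 ± 0.19 on the log2 scale (SE, adjusted p = 0.00359). Without PBS 1 the log2 fold change of Pdia6 was -0.52 (adjusted p = 0.0148). In both genes PBS 1 was the highest library and TNF 1 the lowest, with no overlap of the groups. P4hb was at 2617 ± 578 CPM after PBS and 2031 ± 419 CPM after TNF and was not called (-0.37 ± 0.19, SE, adjusted p = 0.121). It was called lower without a filter on low counts (adjusted p = 0.0208) and with total counts alone (-0.53, adjusted p = 0.000901, the lowest of 15 alternatives). Without PBS 1 its log2 fold change was -0.17 (adjusted p = 0.4765, the highest).

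The fourth role was ER-associated degradation, with 11 genes, of which 4 were higher, 5 lower and 2 not called. The called share was 81.8%, against 59.6% over all genes tested. The libraries of 8 genes did not overlap (72.7%, against 60.7%), and the median log2 fold change was -0.07. Sel1l, Os9, Edem1, Edem2 and Derl3 were lower, Herpud1, Derl1, Derl2 and Selenos higher, and Syvn1 and Edem3 not called.

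Sel1l (ENSMUSG00000020964, chr12:91772799-91815982 in GRCm39, minus strand) encodes the adaptor that links substrates to the ubiquitin ligase HRD1. It had 457, 378 and 389 CPM after PBS and 171, 179, 176 and 183 CPM after TNF. All TNF libraries were below all PBS libraries, and the gene fell by 1.20 ± 0.10 on the log2 scale (SE, adjusted p = 3.39e-07). Syvn1, which encodes HRD1 itself, was at 84.3 ± 8.96 CPM after PBS and 80.6 ± 2.24 CPM after TNF and was not called (-0.07 ± 0.10, SE, adjusted p = 0.599).

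Os9 (ENSMUSG00000040462, chr10:126930436-126957055, minus strand) encodes a lectin that binds trimmed glycans on misfolded proteins and brings them to SEL1L. Its levels were 404, 325 and 245 CPM after PBS and 102, 139, 133 and 137 CPM after TNF. The groups were far apart, with a fall from 324 ± 79.5 to 128 ± 17.5 CPM (log2 fold change -1.34 ± 0.16, SE, adjusted p = 1.06e-05).

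The EDEM proteins trim mannose from glycoproteins and so mark them for degradation, and the 3 genes differed. Edem2 (ENSMUSG00000038312, chr2:155542455-155571395, minus strand) had 283, 204 and 205 CPM after PBS and 54.1, 100.3, 80.2 and 86.0 CPM after TNF, and fell by 1.53 ± 0.19 on the log2 scale (SE, adjusted p = 2.52e-05). Edem1 had 546, 417 and 427 CPM after PBS and 215, 342, 264 and 300.2 CPM after TNF, and fell less, by 0.73 ± 0.15 on the log2 scale (SE, adjusted p = 0.00108). Neither gene had an overlap of the groups. Edem3 had 353, 289.6 and 271 CPM after PBS and 292, 386, 366 and 389.7 CPM after TNF and was not called (0.24 ± 0.13, SE, adjusted p = 0.141). It was called higher without PBS 1 (0.36, adjusted p = 0.0386) and without TNF 1 (0.32, adjusted p = 0.0333, the lowest of 15 alternatives, the highest being 0.514).

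Herpud1 (ENSMUSG00000031770, chr8:95113022-95123141, plus strand) encodes an ER membrane protein of the HRD1 complex and is known as one of the most inducible genes of the response. It had 295, 283 and 249.6 CPM after PBS and 417, 475, 422 and 545 CPM after TNF. All TNF libraries were higher, and the log2 fold change was 0.75 ± 0.12 (SE, adjusted p = 0.000141). Selenos, a selenoprotein that binds the ATPase p97, had 123, 85.4 and 78.3 CPM after PBS and 93.6, 167, 133 and 167 CPM after TNF, so TNF 1 lay below PBS 1. The call (0.55 ± 0.22, SE, adjusted p = 0.0485) was kept in only 7 of 15 alternatives (adjusted p 6.44e-05 to 0.162). Without PBS 2, PBS 3, TNF 2, TNF 3 or TNF 4 the log2 fold change was 0.42 to 0.57 and the adjusted p 0.0649 to 0.162.

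The derlins form a channel through which proteins leave the ER. Derl1 had 88.7, 76.9 and 69.2 CPM after PBS and 91.7, 126, 115 and 122 CPM after TNF (log2 fold change 0.54 ± 0.13, SE, adjusted p = 0.00232). Derl2 had 49.8, 46.2 and 46.8 CPM after PBS and 58.0, 68.2, 55.1 and 57.9 CPM after TNF (0.33 ± 0.11, SE, adjusted p = 0.0164). Both rose without overlap of the groups, but Derl2 was not called without PBS 2 (0.31, adjusted p = 0.0618), without TNF 2 (0.26, adjusted p = 0.0508) or with total counts alone (0.17, adjusted p = 0.349; the lowest of 15 alternatives was 0.0157).

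Derl3, a derlin that is highly expressed in plasma cells, was rare, with 70, 77 and 55 counts in the PBS libraries and 13, 38, 36 and 28 counts in the TNF libraries. That is 4.32, 3.92 and 2.91 CPM after PBS and 0.727, 2.24, 1.93 and 1.83 CPM after TNF, with no overlap. It fell by 1.14 ± 0.40 on the log2 scale (SE, adjusted p = 0.0235), and the call was lost without PBS 1 (-1.02, adjusted p = 0.0854) and without PBS 2 (-1.10, adjusted p = 0.0667; the lowest of 15 alternatives was 0.0103). Of 6 plasma cell markers, Mzb1 and Tnfrsf17 were at 0 in all 7 libraries, and Jchain, Igha and Igkc stayed under 1 CPM in each of them, so Derl3 was the only gene of that list above this level.

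Ratios of related genes within a library do not depend on how libraries are scaled. For 9 pairs, the log2 ratio of counts (with 1 count added to each) was compared between the groups by a two-sided exact permutation test (35 arrangements of the group labels), for which 0.0286 is the smallest p. For 7 of the 9 pairs the ratios of the groups did not overlap, and each of these had the smallest p, with an adjusted p of 0.0368 over the 9 pairs. Since 60.7% of all genes tested already separated the groups singly, and no share over other pairs of genes was computed, this count is a description of these pairs alone.

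The largest shift was that of Ero1a to Ero1b. After PBS there were 0.484, 0.510 and 0.491 counts of Ero1a for each count of Ero1b, and after TNF there were 3.07, 3.65, 4.37 and 5.77. Per kb of exon, Ero1b was the higher of both after PBS (13.4 ± 1.78 against 9.40 ± 1.16 CPM per kb) and Ero1a after TNF (24.2 ± 4.25 against 4.15 ± 0.625 CPM per kb). On the log2 scale the ratio went from -1.01 ± 0.04 (SD, n = 3) to 2.04 ± 0.39 (SD, n = 4), a difference of 3.05 (exact permutation p = 0.0286, adjusted p = 0.0368). Since Ero1a rose and Ero1b fell without overlap, their ratio had to separate the groups, and this p adds no support of its own.

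Atf6 was also set against Atf6b, its paralog, which is known as the weaker activator. The ratio of Atf6 to Atf6b was 1.52, 1.49 and 1.31 after PBS and 7.63, 4.91, 5.69 and 6.23 after TNF, a log2 difference of 2.07. Atf6b itself had 99.96, 88.4 and 77.3 CPM after PBS and 28.4, 49.4, 38.9 and 40.1 CPM after TNF, without overlap, and fell by 1.18 ± 0.16 on the log2 scale (SE, edgeR adjusted p = 2.96e-05). With Atf6 higher and Atf6b lower in all TNF libraries, the ratio of Atf6 to Atf6b had to separate the groups as well. The ratio of Ern1 to Ern2, which encodes the IRE1-beta of mucosal epithelia, was 0.815, 0.817 and 0.856 after PBS and 1.02, 0.627, 1.02 and 1.13 after TNF. Its groups overlapped and the log2 difference was 0.16 (exact permutation p = 0.571, adjusted p = 0.571), both genes having fallen.

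Among the chaperones, the ratio of Calr to Canx moved from 1.51, 1.27 and 1.11 after PBS to 2.67, 3.03, 2.66 and 2.91 after TNF, a log2 difference of 1.13. That of Hspa5 to Hsp90b1 moved from 1.46, 1.56 and 1.91 to 3.47, 3.76, 2.98 and 3.29, a log2 difference of 1.04. Neither ratio overlapped between the groups, although the levels of all 4 genes did.

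Within the degradation genes, the log2 ratio shifted by 1.78 for Edem3 to Edem2, by 0.81 for Edem1 to Edem2 and by -1.53 for Derl3 to Derl2, each without overlap. Derl1 to Derl2 shifted by 0.21 with overlap (exact permutation p = 0.2, adjusted p = 0.225).

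**Figure D4:**
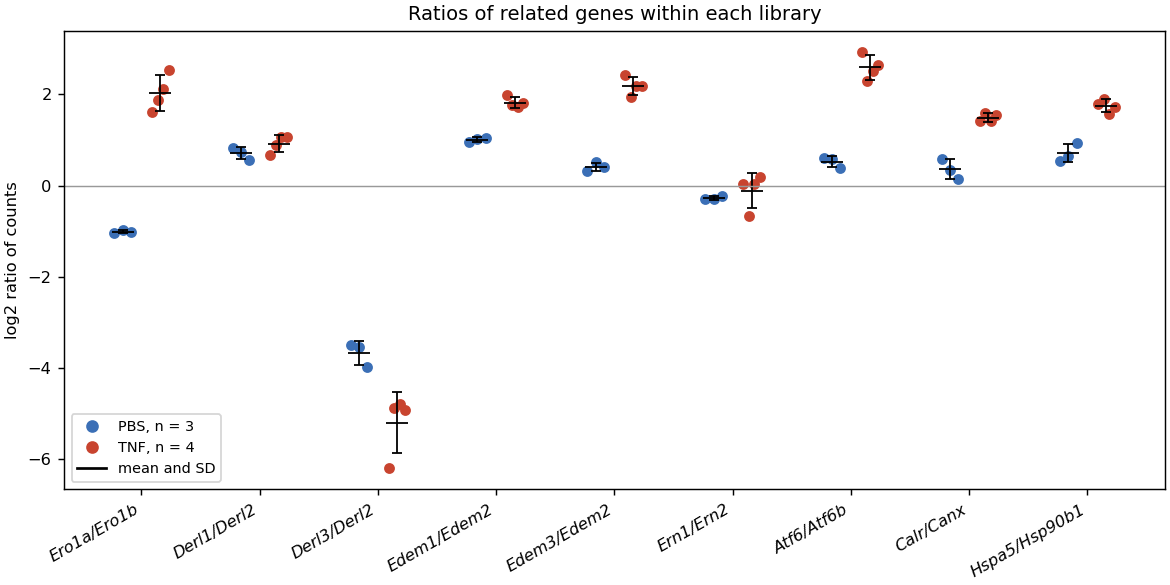
Log2 ratio of counts of 9 pairs of related genes within each library (PBS blue, n = 3; TNF red, n = 4), with mean and SD. The Ero1a to Ero1b ratio crosses 0, from -1.01 after PBS to 2.04 after TNF, while Derl1/Derl2 and Ern1/Ern2 overlap.

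Within each group, the same libraries stood at the ends for most of these genes. PBS 1 was the highest PBS library for 30 of the 32 genes (93.8%), against 36.9% of all genes tested, and PBS 3 was the lowest for 26 (81.2%), against 41.3%. TNF 1 was the lowest TNF library for 28 of the 32 genes (87.5%), against 31.4% of all genes. With scaling by total counts alone these shares were 53.1% for PBS 1 (all genes 10.3%) and 65.6% for TNF 1 (all genes 11.5%), while PBS 3 was lowest for 40.6% (all genes 13.4%). Genes of the set are not independent of one another, and these counts are a description.

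The summed level of 9 PC markers, Lyz1 and Defa24 among them, was at 264996, 200923 and 164909 CPM in PBS 1 to 3. In TNF 1 to 4 it was at 160342, 229041, 199030 and 287094 CPM. PBS 1 was again the highest PBS library and TNF 1 the lowest TNF library, on the same scaling factors as the 32 genes. As shares of all counts, the markers made up 24.67, 21.49 and 20.07% of PBS 1 to 3. They made up 17.4, 21.22, 19.39 and 24.19% of TNF 1 to 4. In these shares PBS 1 was still highest and TNF 1 lowest for both sets. The highest TNF library was TNF 2 for the 32 genes and TNF 4 for the markers. The lowest PBS library was PBS 2 for the 32 genes and PBS 3 for the markers. Of these 9 markers, 3 were called higher and 2 lower, a called share of 55.6%, close to the 59.6% of all genes tested. Their part in the levels of the ER genes was not tested.

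Many markers of other cells that a sort could hold also moved with the group. Of all genes tested, 30.1% were lower, which is the background for each count in this paragraph. Summed goblet cell markers were at 10423 to 19220 CPM after PBS and 8760 to 9828 CPM after TNF, with 4 of 6 called lower. Muc2 (5361 ± 1793 CPM after PBS, 5864 ± 318 CPM after TNF) and Spink4 held most of that sum. Both had overlapping groups and were not called (edgeR adjusted p = 0.637 and 0.172). Summed tuft cell markers were at 1505 to 2464 and 286 to 745 CPM, with 6 of 6 called lower. Of 5 stem cell markers, 4 were lower (3324 to 4621 CPM after PBS, 1928 to 2669 CPM after TNF), as were 3 of 6 enteroendocrine markers (45.3 to 112 CPM and 18.1 to 31.8 CPM). Enterocyte markers summed to at most 66.8 CPM after PBS and 3.80 CPM after TNF, with 3 of 4 tested genes lower. Stromal and endothelial markers stayed at or below 2.34 CPM in sum. Leukocyte markers reached at most 31.3 CPM, with Cd3e at 0 in all libraries, Ptprc lower and S100a9 higher. The groups overlapped for Ptprc (edgeR adjusted p = 0.0270), and its call was kept in 10 of 15 alternatives. The part of these cells in the changes of the ER genes, of which goblet cells are known to express many at high level, was not tested.

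A further 74 genes of the ER and its stress response were listed by function, of which 72 were tested. Of these, 19 were higher and 24 lower, a called share of 59.7%, close to the 59.6% of all genes tested (29.5% higher and 30.1% lower), which is also the background for each list that follows. With total counts alone the split was 12 higher and 28 lower. The median log2 fold change was -0.07. Clgn had 0 counts in every library and Fkbp10 was too low to test.

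The first list held IRE1-beta, ER membrane transcription factors, their proteases and Bhlha15, with 7 of 10 genes lower (30.1% of all genes tested), 1 higher (29.5%) and a median log2 fold change of -1.37. Bhlha15 encodes MIST1, a factor that expands the secretory apparatus and is itself a known target of XBP1. Its levels were 326, 334 and 300.1 CPM after PBS and 13.2, 9.60, 10.8 and 12.7 CPM after TNF. It fell by 4.79 ± 0.13 on the log2 scale (SE, adjusted p = 1.68e-11), more than any of the 32 genes, while Xbp1 rose. Ern2 had 274, 241 and 256 CPM after PBS and 78.8, 95.8, 67.0 and 63.3 CPM after TNF (-1.75 ± 0.14, SE, adjusted p = 1.15e-07). Creb3, which encodes an ER membrane factor of the CREB family, was the gene that rose (0.42 ± 0.13, SE, adjusted p = 0.01115), but its call was lost with scaling by total counts only (edgeR adjusted p = 0.233).

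The PERK arm held 6 genes, 4 higher and 1 lower, with a median log2 fold change of 0.69. Atf4, the transcription factor of this arm, had 273, 265 and 229.6 CPM after PBS and 379, 401, 365 and 428 CPM after TNF (0.62 ± 0.11, SE, adjusted p = 0.000273). Ppp1r15a encodes GADD34, which directs a phosphatase to eIF2-alpha and so ends the block of translation. It had 24.0, 18.6 and 15.996 CPM after PBS and 49.1, 86.6, 73.7 and 95.9 CPM after TNF (1.97 ± 0.23, SE, adjusted p = 1.81e-05), the largest rise among the listed genes. Ppp1r15b, the constitutive partner of the same phosphatase, went from 345 ± 47.9 to 415 ± 20.6 CPM and was not called (0.26 ± 0.12, SE, adjusted p = 0.0683). Ddit3, which encodes the death-promoting factor CHOP, was at 3.22 ± 0.976 CPM after PBS and 1.74 ± 0.263 CPM after TNF (-0.89 ± 0.36, SE, adjusted p = 0.046). Its call was kept in 8 of 15 alternatives. It was lost without the filter on low counts, with the replicate block, and without PBS replicate 2 or 3 or TNF replicate 2, 3 or 4 (edgeR adjusted p = 0.244, 0.0511, 0.0919, 0.0897 and 0.0723 for these libraries in turn).

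Of 15 further disulphide isomerases and thiol oxidases, 4 were higher, 3 lower and 8 not called. With scaling by total counts only, all 4 that were higher (Tmx1, Tmx3, Tmx4 and Txndc12) lost the call (edgeR adjusted p = 0.137, 0.605, 0.064 and 0.27). Over all alternatives Tmx4 kept the call in 14 of 15, Tmx1 in 13, Txndc12 in 6 and Tmx3 in 4. Tmx1 also lost it with the replicate block (adjusted p = 0.0722). Tmx3 and Txndc12 lost it with DESeq2 size factors, the DESeq2 test and the replicate block, Tmx3 also without the filter on low counts. Without PBS 1, PBS 2, PBS 3, TNF 1, TNF 2 or TNF 4, Tmx3 had log2 fold changes of 0.24 to 0.30 and edgeR adjusted p-values of 0.0609 to 0.127. Without PBS 2, PBS 3, TNF 2, TNF 3 or TNF 4, those of Txndc12 were 0.19 to 0.36 and 0.0598 to 0.224. Agr2 and Qsox1 were not called: Agr2, an isomerase needed for mucin folding, was at 856 ± 411 and 641 ± 238 CPM (-0.42 ± 0.38, SE, adjusted p = 0.374), and the sulphydryl oxidase Qsox1 at 839 ± 144 and 815 ± 75.9 CPM (-0.04 ± 0.14, SE, adjusted p = 0.806). Tmx4, a membrane thioredoxin, rose most (0.68 ± 0.16, SE, adjusted p = 0.0023). Agr3 had 135 counts in the PBS libraries together and 0 in the TNF libraries, at least 56.6-fold lower with a floor of 3 counts over the TNF group.

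Of 16 further chaperones and prolyl isomerases tested, 5 were lower and 11 not called, with a median log2 fold change of -0.29. Serp1, a protein of the translocation site, was at 809 ± 145 and 957 ± 191 CPM (0.24 ± 0.17, SE, adjusted p = 0.238), and the disulphide reductase Dnajc10 at 279.6 ± 68.7 and 299 ± 39.3 CPM (0.10 ± 0.16, SE, adjusted p = 0.62). Cdnf, the paralog of Manf, was at 1.26 ± 0.645 and 0.425 ± 0.334 CPM with overlapping groups (-1.59 ± 0.65, SE, adjusted p = 0.0492). Its call was kept in 8 of 14 alternatives. It was lost without the filter on low counts, and without PBS replicate 2 or 3 or TNF replicate 1, 2 or 3 (edgeR adjusted p = 0.274, 0.06596, 0.0888, 0.106 and 0.0983 for these libraries in turn).

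The 5 genes of glycan trimming and the calnexin cycle included 4 that were lower and 1 not called, with a median of -0.86. Uggt1, which reglucosylates proteins that have not yet folded, went from 377 ± 68.0 to 207 ± 35.3 CPM (-0.86 ± 0.15, SE, adjusted p = 0.000258). Ganab, the catalytic subunit of glucosidase II, went from 269 ± 22.6 to 172 ± 15.7 CPM (-0.64 ± 0.11, SE, adjusted p = 0.000158). Uggt2, the rare paralog of Uggt1, fell from 3.11 ± 0.258 to 0.388 ± 0.181 CPM (-3.00 ± 0.47, SE, adjusted p = 8.79e-05).

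Of 20 further degradation genes, 10 were higher, 4 lower and 6 not called, with a median log2 fold change of 0.26. The ATPase Vcp was at 229 ± 30.6 and 265 ± 23.4 CPM and was not called (0.21 ± 0.12, SE, adjusted p = 0.151). Ube2j2, a ubiquitin-conjugating enzyme of the ER membrane, rose from 25.3 ± 3.21 to 72.0 ± 4.52 CPM (1.51 ± 0.12, SE, adjusted p = 1.27e-07). Svip, a small inhibitor of this pathway that binds the same ATPase, had 44.0, 34.0 and 33.3 CPM after PBS and 3.52, 5.48, 6.42 and 5.03 CPM after TNF. It fell by 2.85 ± 0.19 on the log2 scale (SE, adjusted p = 2.69e-08).

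**Figure D5:**
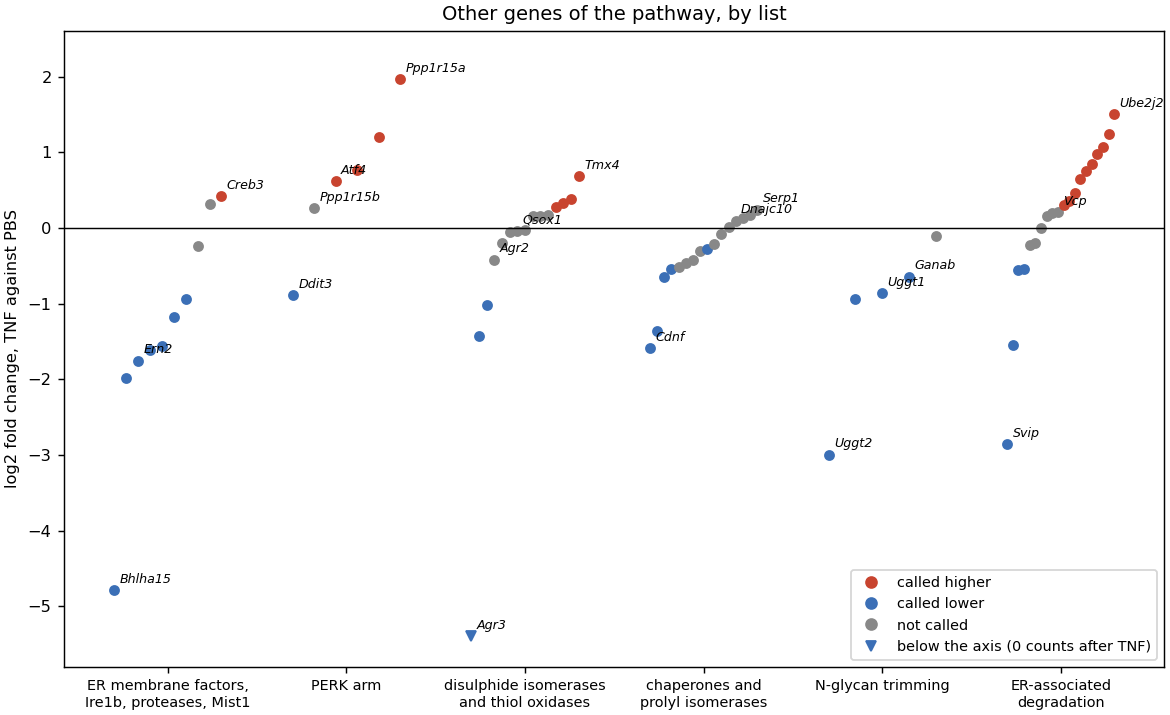
Log2 fold change, TNF against PBS, of the other tested genes of the pathway by list, in order of change within a list (red, called higher; blue, called lower; grey, not called). Genes named in the text are marked, and Agr3, with 0 counts after TNF, is drawn as a triangle below the values because its fold is only a lower bound.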

How the data were processed

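Raw counts per Ensembl gene were deposited by the authors for 3 PBS and 4 TNF libraries of total RNA, read from a single end on an Element AVITI. The submitters' processing notes name FastQC, Trimmomatic 0.39, STAR 2.7.10a and DESeq2 and the builds mm10 and mm39, without their role. How reads were counted, with which annotation and whether by strand, is not given in the sources used here.

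TNF was tested against PBS on the deposited counts of all 7 libraries, without covariates, using edgeR 4.0.16 (quasi-likelihood, two-sided; R 4.3.3, limma 3.58.1). The filterByExpr function kept 14329 genes, and scaling was by TMM. P-values were adjusted over all genes tested (Benjamini-Hochberg), and genes under 0.05 were called. CPM is counts per 1000000 on TMM-scaled library sizes. SE is the log2 fold change divided by the root of F. Ratios were compared by exact permutation and adjusted over 9 pairs. The fit was run on simulated counts with far fewer changed genes than were called here, so scaling under changes this wide was not probed. The motif search was run on made sequences.

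Coordinates are from GENCODE M39 (GRCm39), where 54749 of 55414 identifiers were found, and exon length is the sum of annotated exons. Promoter sequences are from RefSeq (GRCm38.p6), which was kept apart from GRCm39. The planned comparison of protein sequences was not made. No library was a copy of another of its group (chi-square per degree of freedom at least 16.7 for each pair), which does not by itself show separate animals. Each counted as 1 replicate because the series description gives a separate mouse for each.

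The members and lists were chosen with earlier results of these data known. Given in every library were called members without overlap, the sensors, Xbp1, Hspa5 and the genes in ratios. From each further list the 2 tested genes with the highest mean CPM and the called gene with the largest change in each direction were named (1 of them is not reported here), and Selenos was given in every library after its values were seen. The alternatives were DESeq2 1.42.0 size factors, total counts, TMM leaving out Lyz1 and the alpha-defensins, no filter, at least 1 CPM in 3 libraries, the DESeq2 test, limma-voom, a replicate block, leaving out each library, and a 2-fold minimum. For ratios, 0.5 counts were added in place of 1.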

Additional observations from a re-analysis of the deposited data

Results flagged for a closer look

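In the TNF group, 41 values were examined for a library that stood apart from the others by Dixon's ratio of gap to range, and 3 passed its limit for groups of 4. Chance alone passes about 1 in 20 such groups. The PBS group of 3 was too small for this.

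Dnajb9, the BiP co-chaperone, was at 76.6 CPM in TNF 4 and at 59.3 to 61.1 CPM in the other TNF libraries (ratio 0.896). It was still below every PBS library there.

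Os9, the degradation lectin, was at 102 CPM in TNF 1 and at 133 to 139 CPM in the other TNF libraries (ratio 0.839). The log2 ratio of Derl3 to Derl2 was -6.21 in TNF 1 and -4.93 to -4.80 in the others (ratio 0.907), and the Derl3 count behind it was 13. TNF 1 was the lowest TNF library for 28 of the 32 genes.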

How the results depend on the processing

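Of the log2 fold changes of the 32 genes, each recomputed under 15 alternatives, 438 kept their direction and their side of the threshold, 26 lost the call, 7 gained it and 9 turned. The directions that turned were those of genes called in no alternative: Hyou1 (0.02 in the report) was at -0.14 with total counts alone and between -0.10 and 0.24 without each library in turn (below 0 without PBS 2, PBS 3, TNF 2 or TNF 4), Dnajb11 at -0.0097 with total counts alone and between -0.059 and 0.38 without each library (below 0 without PBS 3), and Syvn1 between -0.13 and 0.025 without each library (above 0 without PBS 1). The cause was not tested. Leaving out 1 library gave 8 to 12 higher and 10 to 14 lower members, 16 to 20 higher and 21 to 24 lower further pathway genes, and 7663 to 8625 calls over all genes. Requiring 2-fold, by construction, left 4530 calls over all genes, 1 higher and 7 lower members, and 5 higher and 14 lower further pathway genes. Total counts alone gave 12 higher further pathway genes in place of 19. DESeq2 size factors and limma-voom lost Selenos (adjusted p = 0.0552 and 0.0594). All 9 ratios kept their direction without any 1 library and with 0.5 counts added, but without a library no permutation p can pass 0.05.

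Replicate numbers showed no sign of pairing the samples. The correlations of deviations of same-numbered libraries were -0.40, -0.05 and -0.23, against -0.26 to 0.42 for libraries of different numbers. Not every library correlated best with its own number. So few pairs cannot show whether libraries shared a day or a cage. A replicate block gave 7131 calls over all genes, 8 higher and 10 lower members and 15 higher and 22 lower further pathway genes. Under the block, Hyou1 was at -0.014, and Wfs1, Hspa5, Hsp90b1, Derl2, Derl3 and Selenos were not called (adjusted p 0.062 to 0.162). Among the 32 genes, Derl3 had the lowest counts, with at most 77 in a library.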

Other observations

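The following genes were chosen after their values were seen. Among the further degradation genes, both cofactors with which the ATPase VCP extracts proteins from the ER membrane were higher after TNF, while Vcp itself was not called. Nploc4 had 85.9, 78.5 and 68.4 CPM after PBS and 175, 189, 192 and 175 CPM after TNF (log2 fold change 1.24 ± 0.11, SE, edgeR adjusted p = 3.85e-07). Ufd1 had 26.9, 30.2 and 27.9 CPM after PBS and 58.1, 58.0, 50.9 and 57.0 CPM after TNF (0.98 ± 0.11, SE, adjusted p = 3.18e-06). The ubiquitin-conjugating enzymes Ube2g2 (1.07 ± 0.11, SE, adjusted p = 1.435e-06) and Ube2j1 (0.84 ± 0.11, SE, adjusted p = 2.03e-05) rose as well, without overlap of the groups. The ligase Rnf5 fell by 1.55 ± 0.23 on the log2 scale (SE, adjusted p = 0.000112).

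Of the CREB-like factors that are anchored in the ER membrane and cut in the Golgi, 3 fell, Creb3 rose (0.42 ± 0.13, SE, adjusted p = 0.01115, a call lost with scaling by total counts only), and Creb3l3 was at 1.36 ± 1.30 CPM after PBS and 1.15 ± 0.728 CPM after TNF and was not called (edgeR adjusted p = 0.794). Creb3l4 fell from 113 ± 24.2 CPM after PBS (SD, n = 3) to 28.6 ± 2.68 CPM after TNF (SD, n = 4), Creb3l2 from 94.0 ± 9.16 to 30.7 ± 2.58 CPM, and Creb3l1 from 115 ± 38.9 to 39.1 ± 9.79 CPM (edgeR adjusted p = 3.94e-08, 3.55e-08 and 0.000665). Mbtps1, the protease that makes the first cut in ATF6 and in these factors, fell by 0.94 ± 0.10 on the log2 scale (SE, adjusted p = 2.80e-06). Mbtps2, which makes the next cut, was at 24.9 ± 1.71 and 31.0 ± 5.31 CPM and was not called (0.32 ± 0.15, SE, adjusted p = 0.0724). Among the isomerases, Txndc5 fell from 699 ± 180.4 to 344 ± 55.7 CPM and Pdia5 from 71.5 ± 24.5 to 26.7 ± 6.80 CPM (adjusted p = 0.000192 and 0.00104).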
